A study of Sus scrofa with 8 samples.

Results

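The genes of the integrin subunits and laminin chains were taken from the bulk transcriptome of porcine pancreatic ductal organoids (PPDO) by a rule on the gene symbol. The symbols sought were ITGA with a number or with one of the letters D, E, L, M, V and X, ITGB1 to ITGB8, LAMA1 to LAMA5, LAMB1 to LAMB4 and the LAMC genes. In the count table, 34 of 30282 genes carried such a symbol, 24 of them integrin subunits and 10 laminin chains. Of these, 33 are described here, namely 4 hemidesmosome genes, 11 other epithelial integrins, 11 integrins best known from leukocytes, platelets, muscle or stroma, and 7 other laminin chains. The 4 symbols ITGAD, ITGAX, LAMA5 and LAMB4 were not matched and are not analysed here.

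PPDO are epithelial cultures grown from pancreatic ducts of wild-type or INS-eGFP pigs of German landrace background, the latter carrying eGFP under the porcine insulin promoter, and the genotype of each line is not given in the sources used here. There were 4 lines, one embryonic (Em), 2 early postnatal (EPN1 and EPN2, from pigs between birth and shortly after weaning) and one late postnatal (LPN, from an adolescent pig). Each line was cultured for a week in complete medium (the control) and in differentiation medium (the treatment), which gave 8 libraries and n = 4 lines per medium. Complete medium contained prostaglandin E2, WNT3a, R-spondin1, noggin, FGF10, EGF and gastrin, and differentiation medium contained none of these. Both media contained the TGF-beta receptor inhibitor A83-01, the ROCK inhibitor Y-27632, nicotinamide, N-acetyl-L-cysteine and the supplements N2 and B27, and all cultures were embedded in Cultrex, a basement membrane extract that itself supplies laminin. The embryonic and late postnatal stages had 1 line each, so developmental stage and line cannot be told apart. Totals ranged from 40553627 to 47910680 counts per library, at which 3 counts, the upper limit that a count of 0 allows, corresponded to 0.0626 to 0.0740 CPM (counts scaled to library size) and covered counting error only.

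Integrins are receptors made of one alpha and one beta subunit that bind epithelial cells to the matrix, and laminins are trimers of an alpha, a beta and a gamma chain that form the basement membrane under an epithelium. In hemidesmosomes, integrin alpha6beta4 (ITGA6 and ITGB4) binds laminin-332, which holds the chains encoded by LAMA3 and LAMB3, and connects it through plectin and dystonin to keratin filaments. Most other epithelial integrins pair with the beta1 or the alphaV subunit and signal through talin, kindlin and focal adhesion proteins to actin.

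The epithelial markers of the labelled cell type were present in every library. EPCAM ranged from 228 to 640 CPM and CDH1, the gene of E-cadherin, from 921 to 4004 CPM. CDH1 was higher in differentiation medium in all 4 lines, without overlap between the media, and was called with the line as a block (log2 fold change 1.11, SE 0.17, adjusted p = 0.0172) and not without it (1.09, SE 0.30, adjusted p = 0.0646). Among the duct keratins, KRT7 ranged from 522 to 2837 CPM and KRT8 from 425 to 4906 CPM, with the lowest value of both in EPN2 in differentiation medium. In this line KRT18 stood at 375 CPM in complete medium, compared with 45.2 CPM after differentiation medium, so this library stands apart from the other 7. Values without it, or without its line, are given below for the integrin and laminin genes called between the media in edgeR. They are also given for called genes that act with integrins, but not for markers of other cell types. KRT19 is not analysed here. Some markers of other cell types were at or near 0, with at most 1 count per library of CDH5 (endothelium), CD3E (T cells) and TYROBP (myeloid cells), and 0 counts of CDH19 (Schwann cells) and of CPB1 and PNLIP (acinar cells) in all libraries. Others were detected. Of the stromal markers, THY1 stood at 140 to 533 CPM, whereas PDGFRB and the collagen genes COL1A1 and COL3A1 reached at most 4.85, 1.16 and 6.07 CPM. Of the endothelial markers, PECAM1 stood at 7.96 to 17.6 CPM and KDR at 3.36 to 33.9 CPM, and TEK reached 12.4 CPM in 1 library. Of the leukocyte markers, CD79A, a B cell receptor component, stood at 1022 to 1804 CPM, CD14 at up to 70.1 CPM, CD68 at 3.24 to 49.8 CPM and LAPTM5 at 0.0433 to 13.6 CPM. Whether the symbols THY1 and CD79A were assigned to the right genes was not tested. As these are bulk samples, fewer cells of a type and less RNA per cell cannot be told apart.

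Of the 33 genes, 27 passed the filter on low counts and were tested between the media, and 6 did not. In edgeR's quasi-likelihood test with the medium as its only term, 5 of the 27 (18.5%) had an adjusted p-value under 0.05, against 6.97% of all 14475 genes tested. ITGA6, ITGB4 and LAMA3 fell and ITGB8 rose in differentiation medium, and ITGB2, with few counts, was called lower. Among all genes, 4.1% were called lower and 2.87% were called higher. Since each medium held the same 4 lines, the line was also entered as a block, and 11 of the 27 (40.7%) were then called, against 19.9% of all genes. Of these 11, 8 were lower and 3 higher, while 10.4% of all genes were called lower and 9.49% higher. The additional 6 were LAMB3, LAMB2, ITGA4 and ITGAM, which were lower, and ITGB3 and ITGB5, which were higher. The fold change was below 1 for 20 of the 27 genes, with a median log2 fold change of -0.32, whereas the median over all genes tested was 0.01. In 7 of the 27 (25.9%) the 4 libraries of one medium did not overlap with those of the other, compared with 18.8% of all genes. These were 6 lower genes (ITGA6, ITGB4, LAMA3, LAMB2, ITGAM and ITGB2) and 1 higher gene (ITGB8), beside shares of 9.96% and 8.82% of all genes. ITGB2, ITGAM and ITGA4 passed the filter through their libraries in complete medium, which favoured a lower value in the other medium. Among the 23 members with a mean of at least 1 CPM over the 8 libraries, a limit chosen after the values were seen that leaves out ITGB2 and ITGAM but not ITGA4, 4 (17.4%) were called without and 9 (39.1%) with the block, and in 5 (21.7%) the media did not overlap. The shares of all genes above this limit were 7.24%, 20.9% and 19.6%. DESeq2, a second count test, called 10 of the 27 (37.0%) without the block and 13 (48.1%) with it. Of the same 14475 genes, it called 18.8% and 36.9%.

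**Figure D1:**
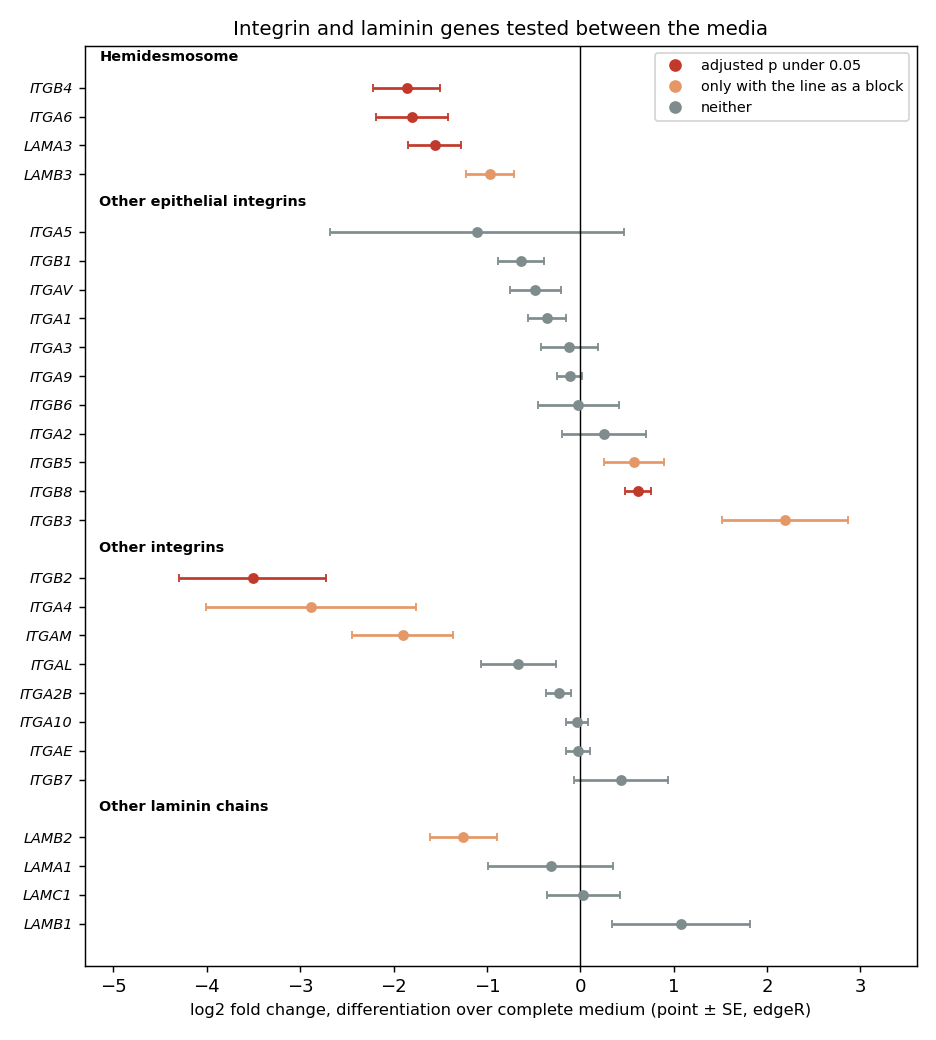
Log2 fold change between the media (x axis, differentiation over complete medium, point ± SE, edgeR) of the 27 genes tested, by group. All 4 hemidesmosome genes lie left of 0, from -1.86 for ITGB4 to -0.97 for LAMB3, whereas the other epithelial integrins lie on both sides; colours mark the genes called without a block, only with the line as a block, or by neither.

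Both subunits of the hemidesmosome integrin were lower in differentiation medium. ITGA6 (ENSSSCG00000015955, chromosome 15, 78504108 to 78591779 in RefSeq's annotation of Sscrofa11.1) encodes the alpha6 subunit. Its level in complete medium was 584, 1933, 1320 and 1350 CPM in Em, LPN, EPN1 and EPN2, and in differentiation medium 271, 558, 372 and 284 CPM. Every line was lower in differentiation medium, and the highest value there, that of LPN, remained just below the lowest in complete medium, that of Em. The mean went from 1297 ± 553 to 371 ± 132 CPM (SD, n = 4), and ITGA6 fell by 1.80 on the log2 scale (SE 0.39, adjusted p = 0.0377). The change within a line was smallest in Em, at -1.11, and was -1.79, -1.82 and -2.25 in LPN, EPN1 and EPN2.

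ITGB4 (ENSSSCG00000017204, chromosome 12, 5651292 to 5685601) encodes the beta4 subunit, which pairs only with alpha6. Complete medium gave 496, 1582, 1244 and 1402 CPM in Em, LPN, EPN1 and EPN2, and differentiation medium gave 258, 426, 336 and 280 CPM. As for ITGA6, Em was lowest in both media, LPN was highest in both, and the media did not overlap. ITGB4 fell by 1.86 on the log2 scale (SE 0.36, adjusted p = 0.0282), from 1181 ± 477 to 325 ± 74.7 CPM (SD, n = 4). The CPM of ITGA6 and ITGB4 moved almost in proportion across libraries. Their ratio, which is not scaled for gene length, lay between 0.963 and 1.31 in the 8 libraries, a range of 1.36-fold, while the level of ITGA6 spanned 7.13-fold and that of ITGB4 6.12-fold.

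LAMA3 (ENSSSCG00000003709, chromosome 6, 108548818 to 108805700) encodes the alpha3 chain of laminin-332, the chain that integrins bind. It stood at 380, 727, 879 and 625 CPM in Em, LPN, EPN1 and EPN2 in complete medium and at 298, 176, 212 and 200 CPM in differentiation medium. The media did not overlap, but Em changed its place among the lines, being lowest in complete and highest in differentiation medium. LAMA3 fell by 1.56 on the log2 scale (SE 0.28, adjusted p = 0.0235), from 653 ± 210 to 221 ± 53.3 CPM (SD, n = 4). Within Em the change was -0.35, compared with -1.64 to -2.05 in the 3 postnatal lines.

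LAMB3 (ENSSSCG00000015618, chromosome 9, 133298009 to 133351162) encodes the beta3 chain, which occurs in laminin-332. Its values were 386, 731, 779 and 648 CPM in Em, LPN, EPN1 and EPN2 in complete medium and 228, 396, 313 and 363 CPM in differentiation medium. All 4 lines were lower in differentiation medium, yet the media overlapped, since LPN in differentiation medium exceeded Em in complete medium. The log2 fold change of LAMB3 was -0.97 (SE 0.26), which missed the threshold without the block (adjusted p = 0.0636) and passed it with the line as a block (-0.95, SE 0.13, adjusted p = 0.0156), also without line EPN2 (adjusted p = 0.0225) or Em (0.0365), but not without LPN (0.0850) or EPN1 (0.0728). The changes within lines lay close together, from -0.76 in Em to -1.32 in EPN1.

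**Figure D2:**
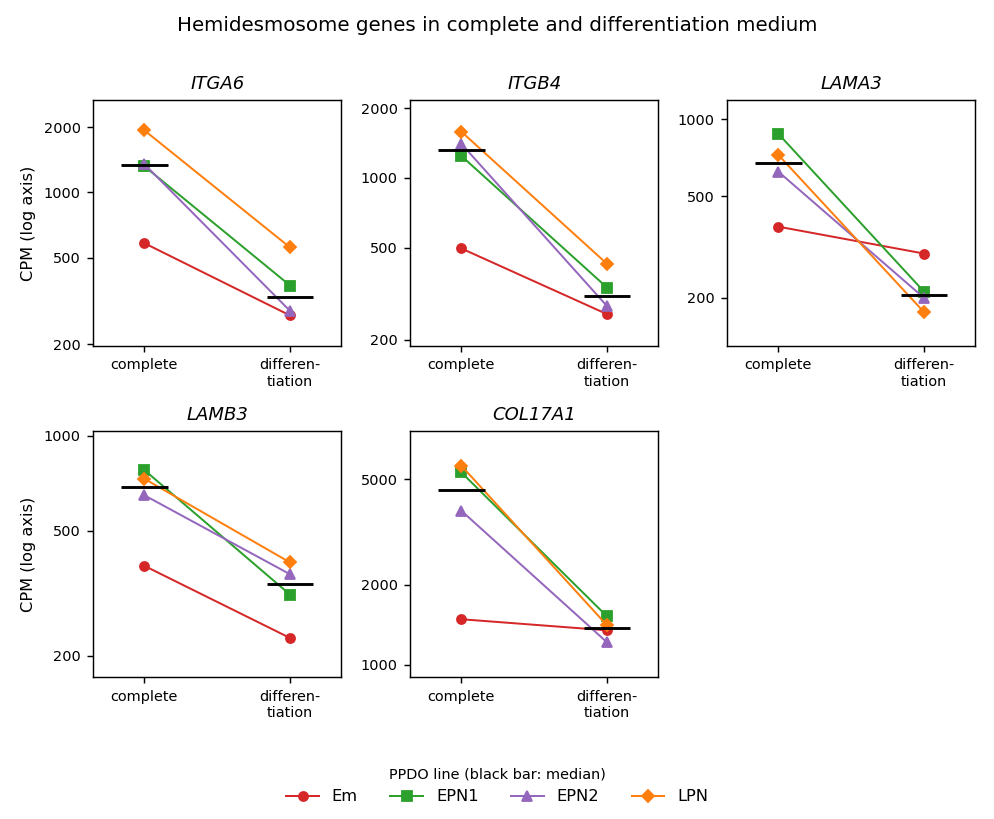
CPM (log axis) of ITGA6, ITGB4, LAMA3, LAMB3 and COL17A1 in complete and differentiation medium, with 1 point per library, lines that join the 2 libraries of a PPDO line, and black bars at the median of 4 lines. All lines descend in every panel, and Em (red) descends least in each.

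LAMA3 and LAMB3 did not keep a fixed ratio. Their CPM ratio was 0.964 to 1.13 in complete medium, and in differentiation medium it was 1.31 in Em and 0.444 to 0.676 in the postnatal lines. Over all libraries it spanned 2.95-fold. The summed CPM of the 4 hemidesmosome genes was 1847, 4973, 4223 and 4025 in Em, LPN, EPN1 and EPN2 in complete medium and 1056, 1555, 1233 and 1127 in differentiation medium. By this sum the embryonic line was lowest and LPN highest in both media, and the media did not overlap. All 4 genes were lower in every line. Without the block 3 of them were called lower, beside 4.1% of all genes, and with it all 4, beside 10.4%, and the median log2 fold change was -1.68, against 0.01 over all genes.

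DESeq2 called all 4 lower without and with the block, beside 18.8% and 36.9% of the 14475 genes tested. It was not run with libraries left out. The calls in edgeR depended on single libraries. After each of the 8 libraries was left out in turn, the log2 fold change stayed between -2.06 and -1.55 for ITGA6, between -2.09 and -1.69 for ITGB4 and between -1.73 and -1.36 for LAMA3, but the adjusted p-value remained under 0.05 in 1, 2 and 4 of the 8 fits. The call of ITGA6 was kept without Em in complete medium, that of ITGB4 also without the EPN2 library of this medium, and that of LAMA3 without either library of Em or of EPN2. Without EPN2 in differentiation medium, the library with low keratins, the adjusted p-values were 0.0655, 0.0513 and 0.0445 in this order. With the line as a block, the log2 fold changes of ITGA6, ITGB4 and LAMA3 were -1.74, -1.77 and -1.54 (adjusted p = 0.0126, 0.0154 and 0.0319), and without line EPN2 they were -1.58, -1.58 and -1.50 (adjusted p = 0.0156, 0.0211 and 0.0579), so that LAMA3 lost its call there. In the blocked fits without LPN or without EPN1, which called 22 and 8 genes in all, no integrin or laminin gene was called. Among the 8 fits without the block, the highest adjusted p-values of ITGA6, ITGB4 and LAMA3, namely 0.109, 0.0903 and 0.0816, were reached without EPN1 in differentiation medium, in a fit that called 70 genes in all.

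Among the 4 partners of the hemidesmosome, COL17A1 was lower and the others were not. COL17A1 encodes the transmembrane collagen XVII, which binds integrin alpha6beta4 in hemidesmosomes. Its level was 1482, 5626, 5309 and 3805 CPM in Em, LPN, EPN1 and EPN2 in complete medium and 1346, 1406, 1520 and 1213 CPM in differentiation medium. All postnatal lines were far lower in differentiation medium, and Em differed little, with a within-line change of -0.14, against -1.65 in EPN2 and lower values in LPN and EPN1. COL17A1 fell by 1.56 on the log2 scale (SE 0.38, adjusted p = 0.0495), a call that was lost without EPN2 in differentiation medium (-1.51, adjusted p = 0.0878). PLEC, which encodes plectin, the linker to keratins, was not called (log2 fold change -0.17, SE 0.29, adjusted p = 0.740), being higher in differentiation medium in Em and EPN1 and lower in LPN and EPN2. DST, the gene of dystonin, another linker, stood at 147, 154, 187 and 285 CPM in complete and 198, 206, 231 and 410 CPM in differentiation medium. It was higher in all 4 lines by 0.30 to 0.52 on the log2 scale, and the fold change of 0.43 (SE 0.31, adjusted p = 0.392) passed the test only with the block (0.42, SE 0.09, adjusted p = 0.0369) and not without line EPN2 (0.38, adjusted p = 0.0632). CD151, a tetraspanin that associates with laminin-binding integrins, was not called either (log2 fold change 0.39, SE 0.14, adjusted p = 0.129).

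Integrin alpha6beta4 and laminin-332 are also abundant in basal cells of layered epithelia, so the basal markers were read beside them. TP63, the transcription factor of basal cells, stood at 29.3, 218, 72.0 and 127 CPM in Em, LPN, EPN1 and EPN2 in complete medium and at 7.32, 294, 83.9 and 309 CPM in differentiation medium. KRT5, a basal keratin, stood at 4.51, 4360, 306 and 7653 CPM in complete medium and at 79.4, 4812, 1431 and 11106 CPM in differentiation medium. Both were higher in differentiation medium in the 3 postnatal lines, in which the hemidesmosome genes were lower. KRT15 stood at 61.4, 1194, 74.3 and 183 CPM in complete and 56.3, 2732, 855 and 1175 CPM in differentiation medium. KRT15 too was higher in the postnatal lines. None of the 3 basal markers tested (TP63, KRT5 and KRT15) passed the test in edgeR, with or without the block, and KRT14 and KRT17 are not analysed here. DESeq2 with the block called KRT15 higher (log2 fold change 1.86, adjusted p = 0.00499), where 36.9% of the 14475 genes were called. The summed CPM of the basal markers was 95.2 in complete and 143 in differentiation medium in Em, 5772 and 7838 in LPN, 452 and 2369 in EPN1, and 7963 and 12590 in EPN2, and the part of these cells in the hemidesmosome values was not tested.

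None of the other epithelial integrins was called lower in edgeR. Of the 11, 1 (9.09%) was called higher without the block and 3 (27.3%) with it, beside 2.87% and 9.49% of all genes called higher and 6.97% and 19.9% called in either direction, and the median log2 fold change was -0.11. ITGB8, which encodes the beta8 subunit of the receptor that binds and activates latent TGF-beta, stood at 103, 116, 141 and 114 CPM in Em, LPN, EPN1 and EPN2 in complete medium and at 206, 155, 184 and 182 CPM in differentiation medium. All 4 values in differentiation medium were above all those in complete medium. ITGB8 rose by 0.62 on the log2 scale (SE 0.14, adjusted p = 0.0405), from 118 ± 15.8 to 182 ± 20.9 CPM (SD, n = 4). Its call was lost in all 8 fits with a library left out, in which the log2 fold change was 0.56 to 0.73 and the adjusted p-value 0.0558 to 0.112 (0.0582 without EPN2 in differentiation medium), and with no filter on low counts (adjusted p = 0.0749). With the block ITGB8 was called (0.62, adjusted p = 0.0331), but not in any of the 4 blocked fits with a line left out (adjusted p = 0.0596 without EPN2).

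ITGB3 encodes the beta3 subunit, a partner of alphaV in the vitronectin receptor. Complete medium gave 3.88, 7.87, 4.28 and 3.82 CPM in Em, LPN, EPN1 and EPN2, and differentiation medium 6.11, 46.8, 30.1 and 7.82 CPM. Every line was higher in differentiation medium, most of all LPN and EPN1, with within-line changes of 2.50 and 2.68 against 0.59 in Em and 0.95 in EPN2. The log2 fold change was 2.19 (SE 0.68, adjusted p = 0.0884) without the block and 1.78 with it (SE 0.44, adjusted p = 0.0459), and in the blocked fits without LPN or without EPN1 it was 1.48 and 1.42 (adjusted p = 0.173 and 0.146), and without EPN2 it was 2.05 (adjusted p = 0.0468).

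ITGB5 encodes the beta5 subunit, likewise a partner of alphaV. Its level was 69.8, 126, 114 and 67.0 CPM in Em, LPN, EPN1 and EPN2 in complete medium and 82.2, 187, 176 and 117 CPM in differentiation medium. The lines LPN and EPN1 were higher than Em in both media, so the media overlapped although each line was higher in differentiation medium. For ITGB5 the log2 fold change was 0.57 (SE 0.32, adjusted p = 0.282), and 0.56 with the block (SE 0.12, adjusted p = 0.0330). The latter was 0.48 without line EPN2 (adjusted p = 0.0578).

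ITGAV, the alphaV subunit shared by these receptors, was not called. Its level was 412, 299, 380 and 621 CPM in Em, LPN, EPN1 and EPN2 in complete medium and 383, 258, 365 and 217 CPM in differentiation medium. Over all lines, its log2 fold change was -0.48 (SE 0.27, adjusted p = 0.286). EPN2 differed most, with a within-line change of -1.51, compared with -0.06 to -0.21 in the others. ITGB1, the common beta subunit of collagen, fibronectin and laminin receptors, stood at 646, 575, 580 and 835 CPM in complete medium and at 585, 348, 469 and 293 CPM in differentiation medium. Here too EPN2 changed most, by -1.51, whereas Em changed by -0.14, and the log2 fold change over all lines was -0.64 (SE 0.24, adjusted p = 0.142).

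ITGA3, which pairs with beta1 to a laminin receptor outside hemidesmosomes, stood at 672, 1268, 907 and 1324 CPM in Em, LPN, EPN1 and EPN2 in complete medium and at 1328, 717, 1137 and 661 CPM in differentiation medium. It was higher in differentiation medium in Em and EPN1 and lower in LPN and EPN2, and its log2 fold change was -0.12 (SE 0.31, adjusted p = 0.833). ITGA2, of a collagen receptor, also changed in opposite directions, by 0.98 in Em and by -1.25 in EPN2. The remaining ITGA1, ITGA9, ITGA5 and ITGB6 had log2 fold changes between -1.11 and -0.02 and adjusted p-values between 0.298 and 0.980.

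**Figure D3:**
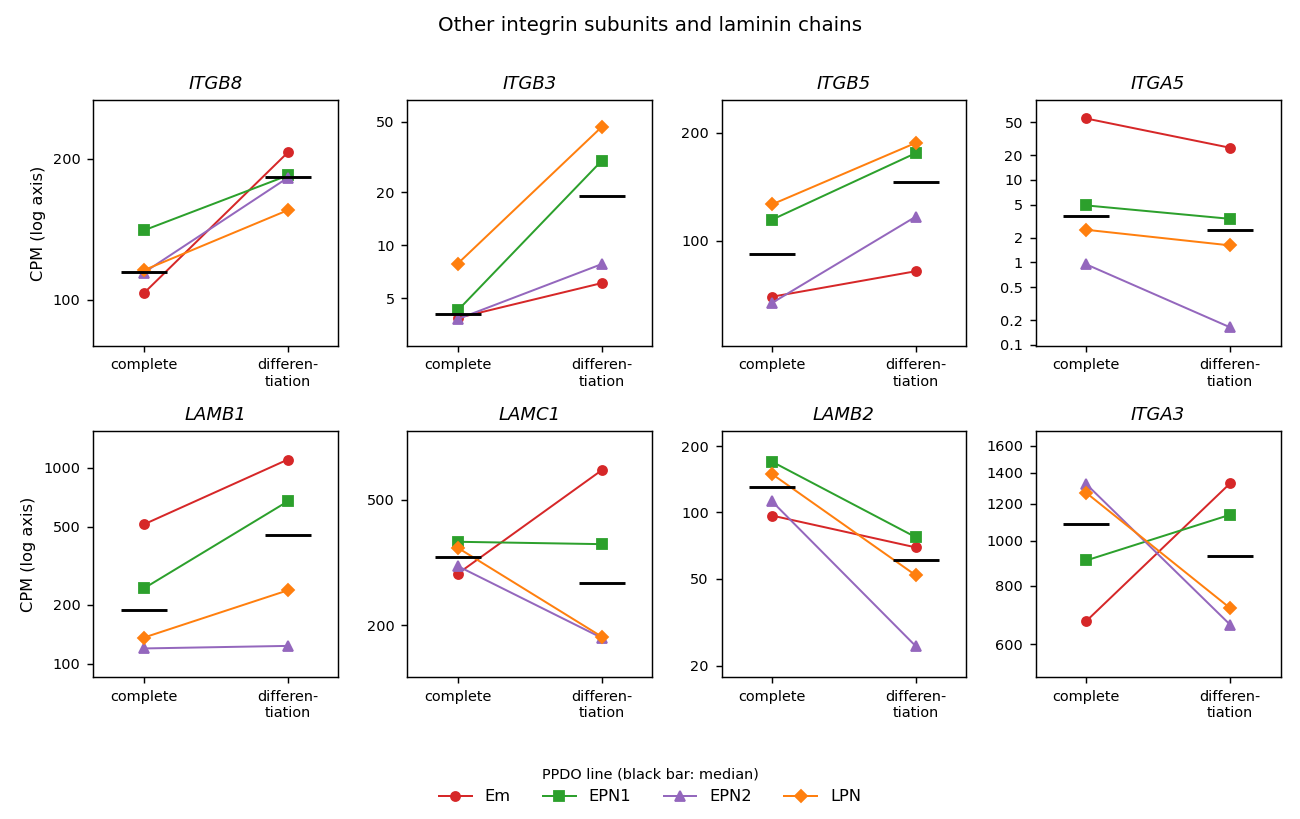
CPM (log axis) of 5 other epithelial integrins (ITGB8, ITGB3, ITGB5, ITGA5 and ITGA3) and 3 other laminin chains (LAMB1, LAMC1 and LAMB2) in the 2 media, drawn as 1 point per library with joined PPDO lines and black bars at the median of 4 lines. ITGB8, ITGB3 and ITGB5 ascend in all lines, LAMB2 descends in all lines, and ITGA3 and LAMC1 separate Em from LPN and EPN2.

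Of the other laminin chains, 4 were tested and none was called without the block. LAMB1, LAMB2 and LAMC1 encode the beta and gamma chains of the laminins found in most basement membranes. LAMB2 was at 96.8, 150, 171 and 112 CPM in Em, LPN, EPN1 and EPN2 in complete medium and at 69.3, 51.6, 77.1 and 24.5 CPM in differentiation medium. All values in differentiation medium were below all those in complete medium. For LAMB2 the log2 fold change was -1.25 (SE 0.35, adjusted p = 0.0722), and -1.34 with the block (SE 0.29, adjusted p = 0.0323). Without line EPN2 the blocked value was -1.06 (adjusted p = 0.0370), and without EPN1 or LPN the adjusted p-values were 0.113 and 0.137.

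LAMB1 went the other way in 3 lines. It stood at 514, 136, 242 and 120 CPM in Em, LPN, EPN1 and EPN2 in complete medium and at 1102, 237, 674 and 123 CPM in differentiation medium. The order of the lines was the same in both media, and EPN2 hardly differed between them, with a within-line change of 0.04 against 0.80 to 1.48. Its log2 fold change of 1.08 (SE 0.74, adjusted p = 0.374) did not pass the test, nor did that of 0.86 with the block (SE 0.25, adjusted p = 0.0620), which without EPN2 was 1.13 (adjusted p = 0.0208).

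LAMC1 encodes the gamma1 chain that pairs with beta1 or beta2. Its values were 291, 352, 368 and 308 CPM in Em, LPN, EPN1 and EPN2 in complete medium and 620, 184, 361 and 182 CPM in differentiation medium. The 4 lines were alike in complete medium and differed 3.40-fold over all libraries, with Em above and LPN and EPN2 below in differentiation medium. The log2 fold change was 0.03 (SE 0.39, adjusted p = 0.968), and it was -0.17 with the block. The CPM ratio of LAMC1 to LAMB1 was lower in differentiation medium in LPN, EPN1 and EPN2 (0.776, 0.536 and 1.48, compared with 2.59, 1.52 and 2.57) and alike in Em (0.563 and 0.567). LAMA1, an alpha chain of early embryos, remained between 0.144 and 1.13 CPM, and LAMA2, LAMA4 and LAMC3 had at most 24 counts in any library and were not tested.

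**Figure D4:**
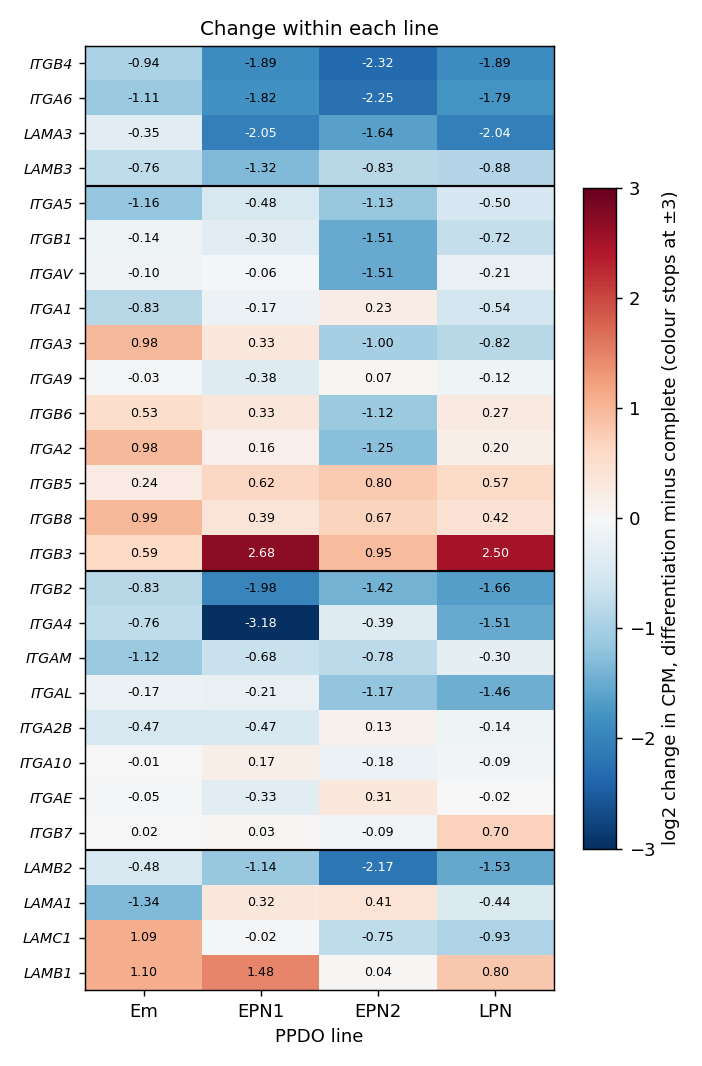
Change of log2(CPM + 0.5) from complete to differentiation medium within each PPDO line (columns) for the 27 genes tested (rows, by group, separated by black lines), with blue for lower and red for higher values and colours capped at 3 in either direction. ITGA6, ITGB4, LAMA3 and LAMB3 are blue in all 4 columns, whereas LAMC1 is red in Em, at 1.09, below 0 in LPN and EPN2 and near 0 in EPN1.

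Integrins best known from other cell types were at low levels or were not called between the media. ITGB2, the common beta subunit of leukocyte integrins, was at 0.867, 1.15, 1.83 and 0.904 CPM in Em, LPN, EPN1 and EPN2 in complete medium and at 0.268, 0.0209, 0.0905 and 0.0234 CPM in differentiation medium. These values stand for 40 to 76 counts per library in complete and 1 to 13 counts in differentiation medium, and 2 of the latter libraries lay under the limit of 3 counts. ITGB2 was called lower, but its fitted log2 fold change of -3.51 (SE 0.79, adjusted p = 0.0412) rests on these few counts. The call was kept in 1 of the 8 fits with a library left out (adjusted p = 0.0301 to 0.120, and 0.0603 without EPN2 in differentiation medium). With no filter on low counts, the 3 members called were all hemidesmosome genes, so ITGB2 was not called. With the block the adjusted p-value was 0.0274. It was 0.0233 without line Em and 0.0472 without EPN2, and the call was lost without LPN (0.114) and without EPN1 (0.117).

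ITGAM, the alpha subunit of a myeloid integrin, had 1.13, 0.268, 0.625 and 0.520 CPM in Em, LPN, EPN1 and EPN2 in complete medium and 0.248, 0.125, 0.204 and 0.0934 CPM in differentiation medium, the latter from 4 to 12 counts per library. Its log2 fold change was -1.90 (SE 0.54, adjusted p = 0.0742), and -1.84 with the block (SE 0.38, adjusted p = 0.0308), or -1.67 without line EPN2 (adjusted p = 0.0593). ITGA4, an alpha subunit of lymphocytes and other migrating cells, stood at 1.82, 1.46, 8.54 and 0.249 CPM in Em, LPN, EPN1 and EPN2 in complete medium and at 0.866, 0.188, 0.498 and 0.0701 CPM in differentiation medium. Each line was lower in differentiation medium, EPN1 most of all. For ITGA4 the log2 fold change was -2.88 (SE 1.12, adjusted p = 0.148), and -2.53 with the block (SE 0.61, adjusted p = 0.0426), or -2.69 without line EPN2 (adjusted p = 0.0554).

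Of the leukocyte markers, 8 were in the table and 5 tested, and none of the 5 was called in edgeR with or without the block. The pan-leukocyte gene PTPRC stood at 2.17, 0.707, 0.529 and 0 CPM in Em, LPN, EPN1 and EPN2 in complete medium and at 0.0413, 0.376, 0.430 and 0 CPM in differentiation medium. PTPRC was thus lower in differentiation medium in 3 lines and had no count in EPN2, in which ITGB2 was also lower. CD14, of monocytes, went the other way in the postnatal lines, with within-line changes of 3.66, 1.39 and 3.05 in LPN, EPN1 and EPN2 and of -3.34 in Em. LAPTM5 was higher in differentiation medium in Em, LPN and EPN2, by 0.20 to 1.01, and CD68 was lower in Em, LPN and EPN1, by -0.34 to -2.85, and higher by 0.12 in EPN2. The summed CPM of the leukocyte markers was 1453, 1488, 1851 and 1177 in complete and 1067, 1167, 1041 and 1228 in differentiation medium, nearly all of it from CD79A, and its part in the ITGB2 values was not tested. Markers of stromal cells went in both directions. Of the 8, COL1A2, COL3A1 and PDGFRA were higher in differentiation medium in all 4 lines, with means of 0.0509, 0.0236 and 0.0638 CPM in complete and 0.611, 2.83 and 0.400 CPM in differentiation medium. In complete medium they had 0 to 9, 0 to 2 and 1 to 4 counts per library, and they did not pass the filter for the test in edgeR. DESeq2 called COL3A1 and PDGFRA higher without the block, but these calls rest on such few counts, and no fold is read from them. PDGFRB was lower in differentiation medium in all 4 lines, at 4.85, 2.34, 3.32 and 0.430 CPM in Em, LPN, EPN1 and EPN2 in complete medium and 0.825, 0.480, 0.204 and 0.0234 CPM in differentiation medium. PDGFRB was called with the block (log2 fold change -3.04, SE 0.44, adjusted p = 0.0160) and not without it (adjusted p = 0.121). It had 19 to 224 counts per library in complete and 1 to 40 in differentiation medium. Like ITGB2, it passed the filter through its libraries in complete medium, which favoured a lower value in the other medium. The part of stromal cells in the values of ITGB2, ITGAM and ITGA4 was not tested.

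ITGA2B, the platelet alpha subunit, ITGAE, of intraepithelial lymphocytes, and ITGA10, of a cartilage collagen receptor, were detected at similar levels in all libraries. ITGA2B stood at 94.2, 81.2, 94.5 and 83.8 CPM in Em, LPN, EPN1 and EPN2 in complete medium and at 67.8, 73.4, 68.2 and 91.6 CPM in differentiation medium, and was not called (log2 fold change -0.23, SE 0.13, adjusted p = 0.283). For ITGAE the values were 41.8, 44.1, 50.9 and 38.9 CPM in complete and 40.2, 43.5, 40.4 and 48.5 CPM in differentiation medium, and the log2 fold change was -0.03 (SE 0.13, adjusted p = 0.920). For ITGA10 they were 25.5, 29.5, 24.8 and 30.1 CPM and 25.3, 27.7, 27.9 and 26.5 CPM, and the change was -0.03 (SE 0.12, adjusted p = 0.884). ITGAL and ITGB7 were not called, and ITGA7, ITGA8 and ITGA11 had at most 24 counts in any library and were not tested.

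Between the lines, with the medium as a covariate, 2 of the 27 genes (7.41%) were called, against 5.14% of all genes tested. ITGA5, the alpha subunit of the main fibronectin receptor, stood at 55.5, 2.49, 4.91 and 0.950 CPM in Em, LPN, EPN1 and EPN2 in complete medium and at 24.5, 1.61, 3.37 and 0.163 CPM in differentiation medium. Em was above all other lines in both media (adjusted p = 0.0148 over the 3 line terms). Each line was lower in differentiation medium, with within-line changes of -1.16, -0.50, -0.48 and -1.13 in Em, LPN, EPN1 and EPN2. Without the block, the log2 fold change of ITGA5 between the media was -1.11 (adjusted p = 0.682). It was 1.43 without Em in complete medium and -3.21 without Em in differentiation medium, in fits that kept Em in 1 medium only. With the block it was -1.09 (adjusted p = 0.0698), and between -1.29 and -0.80 with a line left out. LAMB1 was the other, with Em highest and EPN2 lowest in both media (adjusted p = 0.0414). When Em was left out, none of the 27 was called between the lines, compared with 1 without LPN, 1 without EPN1 and 3 without EPN2. The share of all genes called between the lines in these fits is not given here. Whether the loss of calls without Em is particular to these genes was therefore not tested. The hemidesmosome genes had adjusted p-values between 0.118 (LAMB3) and 0.911 (LAMA3) in this test, although Em was lowest in complete medium for all 4.

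Genes that act with integrins were counted from lists of adaptors, basement membrane genes and ligands. Of the 25 adaptor and focal adhesion genes tested, 2 (8.0%) were called without the block and 5 (20.0%) with it, near the 6.97% and 19.9% of all genes, and the median log2 fold change was 0.03. TLN2, which encodes talin-2, an activator of integrins, rose by 1.75 on the log2 scale (SE 0.43, adjusted p = 0.0490), from 12.8, 5.0, 4.81 and 14.6 CPM in Em, LPN, EPN1 and EPN2 in complete medium to 37.8, 25.4, 39.8 and 22.5 CPM in differentiation medium. All lines were higher, and without EPN2 in differentiation medium the adjusted p-value was 0.0569. SRC, the gene of a kinase at focal adhesions, rose by 1.00 (SE 0.24, adjusted p = 0.0442), from 60.1, 83.0, 52.6 and 86.9 CPM to 103, 149, 126 and 188 CPM in the same order, also in all lines (adjusted p = 0.0673 without that library). A further 3 were called with the block. TNS4, of a tensin that binds beta subunits, stood at 83.0, 298, 126 and 541 CPM in complete and 21.5, 126, 36.1 and 110 CPM in differentiation medium and was lower in all lines (-1.83, adjusted p = 0.0105, and 0.0122 without line EPN2). TNS2, of another tensin, stood at 23.2, 35.5, 44.5 and 9.77 CPM in complete and 12.7, 6.74, 11.6 and 6.42 CPM in differentiation medium, again lower in all lines (-1.45, adjusted p = 0.0411, and 0.0298 without line EPN2). ITGB1BP1, which encodes a protein that binds the tail of beta1, stood at 20.5, 30.5, 25.1 and 31.0 CPM in complete and 28.6, 41.4, 33.9 and 39.0 CPM in differentiation medium and was higher in all lines (0.42, adjusted p = 0.0371, and 0.0521 without line EPN2).

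None of the 13 basement membrane partners and laminin receptors tested was called in edgeR, with or without the block. The shares of all genes called were 6.97% without and 19.9% with it. Beside 3954 of all 14475 genes tested, 1 of the 13 had an unadjusted p-value under 0.05 without the block. That gene, FRAS1, named after its values were seen, encodes a matrix protein of epithelial basement membranes. FRAS1 stood at 12.9, 2.68, 5.51 and 1.72 CPM in Em, LPN, EPN1 and EPN2 in complete medium and at 390, 53.0, 298 and 1.49 CPM in differentiation medium. It was higher in differentiation medium in 3 lines and about the same in EPN2 (log2 fold change 5.02, SE 1.47, adjusted p = 0.0784). DESeq2 called 1 of these 13 genes (7.69%) without and 4 (30.8%) with the block, beside 17.7% and 34.6% of all genes. The median log2 fold change of the 13 was 0.13, against -1.68 for the hemidesmosome genes.

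Of the 12 other integrin ligands tested, 1 (8.33%) was called without and 2 (16.7%) with the block, beside 6.97% and 19.9% of all genes. TGFB1, whose latent form is a ligand of integrins with beta6 or beta8, stood at 94.0, 135, 194 and 82.0 CPM in Em, LPN, EPN1 and EPN2 in complete medium and at 12.3, 32.1, 28.2 and 16.5 CPM in differentiation medium. The media did not overlap, and TGFB1 fell by 2.50 on the log2 scale (SE 0.40, adjusted p = 0.0182, and 0.0342 without EPN2 in differentiation medium). CCN1, the gene of a matricellular ligand of several integrins, stood at 605, 96.1, 325 and 157 CPM in complete and 262, 39.1, 121 and 103 CPM in differentiation medium. It was not called without the block (log2 fold change -1.17, SE 0.69, adjusted p = 0.308) and was called lower with it (-1.14, SE 0.16, adjusted p = 0.0156, and 0.00988 without line EPN2), being lower in all 4 lines. In the blocked fits without LPN or without EPN1, the partner genes called with the block (COL17A1, DST, TLN2, SRC, TNS2, TNS4, ITGB1BP1, CCN1 and TGFB1) were not called, except TGFB1 without LPN (adjusted p = 0.0498). FN1, which encodes fibronectin, ranged from 10.8 to 359 CPM in complete medium and from 0.841 to 84.7 CPM in differentiation medium, and was not called (log2 fold change -2.07, SE 1.46, adjusted p = 0.392).

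Some of these genes overlap others on the chromosome in RefSeq's annotation of Sscrofa11.1, among them ITGA1 with PELO, ITGA2 with MOCS2, ITGAE with GSG2, and LAMB3, LAMB1, LAMA1, ITGAM and ITGB6 with long noncoding RNA genes. ITGAV and ITGB2 overlap pseudogenes. The study lists a stranded library kit, but whether the counting used the strand is not given in the sources used here, so reads of the overlapping stretches cannot be assigned with certainty.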

How the data were processed

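RNA was selected by poly(A), and the authors sequenced 8 libraries and quantified transcripts with salmon, run through nf-core, on a pig genome with custom annotation; Sscrofa11.1 is named in the submitters' processing notes. The deposited table holds estimated counts per gene, labelled raw, and whether they were scaled for gene length could not be read from the values, of which 78.6% of those above 0 were whole. The rows of a gene were summed and rounded. The 8 rows of reporter transgenes (0.00142% of counts) were left out. Media were assigned by titles (Control or Treated) and lines by the table's header, since the labels' treatment entry is the same for all 8 samples, an endocrine induction medium, and does not separate the groups; the make-up of the media is from the study's methods.

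Tests were run with edgeR 4.0.16 in R 4.3.3 (TMM, factors 0.935 to 1.06, default expression filter, quasi-likelihood test, Benjamini-Hochberg adjustment over 14475 genes, threshold 0.05), DESeq2 1.42.0 was an alternative, and the steps were tested on simulated data. SE is the log2 fold change divided by the root of F. CPM were scaled by TMM, and no transcript lengths were used here, so CPM of different genes are not on one scale, also where they chose which genes were given in full. Changes within lines used log2(CPM + 0.5). Libraries of the same line deviated together (r = 0.400 to 0.657 for 4 pairs, -0.479 to 0.242 for 12 other pairs), so the line paired the libraries. P-values between the media without the block measure the spread between 4 lines within a medium. Those with the block measure the spread of the change within the 4 lines.

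Genes and lists were chosen with earlier results of these data known, and 1 member is not reported here. Full values were given for the hemidesmosome genes, members called with or without the block, the 3 members of each group with the highest mean CPM, and called genes of the partner lists. Coordinates are from RefSeq's table for Sscrofa11.1. Sequences were not used here, and the planned search for promoter motifs was not made.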

Additional observations from a re-analysis of the deposited data

Results flagged for a closer look

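In 54 groups of 4 libraries (27 genes in 2 media), 5 libraries lay far from the other 3 by Dixon's criterion, whereas chance alone marks about 1 group in 20. ITGA5 stood out in Em in both media, in complete medium at 55.5 CPM and in differentiation medium at 24.5 CPM, above the other lines. ITGB3 was high in LPN in complete medium, at 7.87 CPM. ITGA1 was high in EPN2 in differentiation medium, at 25.0 CPM, where the other 3 lines lay between 18.6 and 19.6 CPM. ITGB7 was low in Em in complete medium, at 0.260 CPM.

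For LAMC1, Em was higher in differentiation medium, whereas LPN and EPN2 were lower and EPN1 hardly differed. The within-line log2 change of LAMC1 was 1.09 in Em and -0.02 to -0.93 in the postnatal lines. With 1 embryonic line, the difference was not tested.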

How the results depend on the processing

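With the replicate block (the line), DESeq2, DESeq2 with the block and no filter on low counts, the genes called between the media numbered 2885, 2996, 5608 and 506 in place of 1009, and the integrin and laminin genes 11, 10, 13 and 3 in place of 5. In edgeR, the block changed no call of an integrin or laminin gene other than those given above with their blocked values. DESeq2 with the block also called ITGA5 (-1.07, adjusted p = 0.00932) and LAMB1 (0.88, adjusted p = 0.00593). In the same order, 3, 2, 4 and 0 other epithelial integrins were called in place of 1, and 1, 1, 2 and 0 other laminin chains in place of 0. Scaling by relative log expression or totals only, or leaving out the -ext rows, kept the counts within 1.5 times (954 to 1006 genes, 5 members).

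When a library, or a line with the block, was left out, the calls ranged from 8 to 2990 for all genes, 0 to 9 for the integrin and laminin genes, 0 to 4 for the hemidesmosome genes, 0 to 2 for the other epithelial integrins and 0 to 2 for the other laminin chains. No member was called without LPN or EPN1, in either medium or as a line. With the block and 3 lines, 22 genes were called without LPN and 8 without EPN1, but 1733 without Em and 2990 without EPN2. Between lines, 0 to 3 were called.

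Uncalled values changed sign, those of ITGA5 (-1.11) and of genes between -0.32 and 0.44. ITGA10 was 0.0031 and ITGAE 0.0056 by totals only, and LAMC1 was -0.17 with the block and -0.15 in DESeq2 with the block. ITGB6 was 0.0148 with the block, 0.0004 in DESeq2, 0.0365 in DESeq2 with the block and 0.0238 by totals only. With a library or line left out, the log2 fold change ranged from -0.0952 to 0.0244 for ITGA10, -0.35 to 0.52 for ITGA2, -0.48 to 0.17 for ITGA3, -3.21 to 1.43 for ITGA5, -0.134 to 0.0815 for ITGAE, -0.41 to 0.38 for ITGB6, -0.12 to 0.67 for ITGB7, -1.07 to 0.12 for LAMA1 and -0.55 to 0.24 for LAMC1. The cause was not tested. Of the other values from all libraries, 160 kept direction and side of the threshold, 19 passed it and 2 lost it.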
